A study of Mus musculus with 4 samples.

Results

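The genes described here are 38 genes of glycolysis and of the response to low oxygen, out of 27612 genes listed in at least 1 table of the series. They were taken by name. Of them, 23 are glucose and lactate transporters, glycolytic enzymes and regulators of glycolysis, and 15 are oxygen sensors, hypoxia-inducible factors (HIFs) and HIF target genes. Levels were read in 4 mouse NSC (neural stem cell) lines that grew from EpiSCs (epiblast stem cells) of 129 mice in medium with EGF and FGF2, each at 10 ng/ml. XN4 and XN1 were made with 10 µM XAV939 (XAV), a tankyrase inhibitor that lowers Wnt signaling, from supplier B for XN4 and from supplier A for XN1, where crystals formed in the medium. KN1 had neither XAV nor CHIR. CN4 was kept in 2 µM CHIR99021 (CHIR), a GSK3 inhibitor that raises Wnt signaling. The oxygen level of the cultures was not given in the sources used here. Each line was measured as 1 BD Rhapsody library, so a difference between lines includes the difference between libraries. No test between lines was possible. Intervals given below cover the counting of reads only, and do not measure the spread over molecules, cells or libraries.

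In glycolysis, glucose enters through Slc2a1 and Slc2a3, is phosphorylated by hexokinases, split by aldolase and carried through Gapdh, Pgk1, Pgam1, enolase and Pkm to pyruvate, which lactate dehydrogenase turns into lactate. When oxygen is scarce, the prolyl hydroxylases encoded by Egln1 and Egln3 no longer mark the HIF proteins of Hif1a and Epas1 for degradation. HIFs then bind short DNA sites near their target genes, often with the core ACGTG. Many glycolytic genes are such targets, as are Vegfa for vessel growth, Bnip3 and Bnip3l for mitophagy, and Pdk1. The kinase encoded by Pdk1 inhibits pyruvate dehydrogenase inside mitochondria. Hif1a protein is controlled mainly by its degradation, so its mRNA does not report HIF activity.

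Promoters that hold the ACGTG core are shown for some of the genes that the results below turn on. Others of these genes, Tpi1, Gpi1, Pfkl, Higd1a and Pdk1, held none and are not shown. Bnip3 and Pgk1 are classical HIF targets, Ldha and Pgam1 are glycolytic genes that were compared with the targets from cell to cell, and Egln1 is the oxygen sensor. Each sequence is the 250 bases before the annotated start of transcription, read 5′ to 3′ on the gene's own strand from RefSeq promoters of build GRCm38.p6. Capitals mark ACGTG on either strand (CACGT when it lies on the other strand). The run CACGTG holds the core on both strands and is also the E-box.
Bnip3: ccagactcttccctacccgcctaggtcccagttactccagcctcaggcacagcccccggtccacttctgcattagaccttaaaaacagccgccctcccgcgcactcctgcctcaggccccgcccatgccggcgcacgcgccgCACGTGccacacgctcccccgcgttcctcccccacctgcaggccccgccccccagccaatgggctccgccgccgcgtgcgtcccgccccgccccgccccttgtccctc
Pgk1: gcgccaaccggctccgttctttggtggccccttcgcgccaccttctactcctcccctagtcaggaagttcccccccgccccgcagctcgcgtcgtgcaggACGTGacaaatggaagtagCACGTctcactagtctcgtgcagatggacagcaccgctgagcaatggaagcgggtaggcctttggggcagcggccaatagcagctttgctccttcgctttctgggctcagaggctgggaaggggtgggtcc
Ldha: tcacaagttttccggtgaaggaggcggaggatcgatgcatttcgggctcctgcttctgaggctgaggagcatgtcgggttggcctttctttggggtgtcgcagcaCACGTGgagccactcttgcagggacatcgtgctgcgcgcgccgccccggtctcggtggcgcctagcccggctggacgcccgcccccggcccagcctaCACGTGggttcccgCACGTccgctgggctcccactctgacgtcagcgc
Pgam1: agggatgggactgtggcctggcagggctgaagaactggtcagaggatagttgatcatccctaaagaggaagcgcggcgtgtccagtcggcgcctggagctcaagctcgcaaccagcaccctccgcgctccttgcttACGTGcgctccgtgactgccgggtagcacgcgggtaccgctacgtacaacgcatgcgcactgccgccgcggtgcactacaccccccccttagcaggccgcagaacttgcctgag
Egln1: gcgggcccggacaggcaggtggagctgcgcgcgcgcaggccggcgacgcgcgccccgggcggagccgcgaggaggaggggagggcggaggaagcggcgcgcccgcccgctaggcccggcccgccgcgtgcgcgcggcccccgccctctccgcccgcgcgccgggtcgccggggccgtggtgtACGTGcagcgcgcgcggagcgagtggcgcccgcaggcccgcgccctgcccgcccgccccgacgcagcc

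The Bnip3 window lies at chr7:138909507-138909756 on the minus strand, that of Pgk1 at chrX:106186850-106187099 on the plus strand, and that of Ldha at chr7:46845554-46845803 on the plus strand. The Pgam1 window is chr19:41911621-41911870 on the plus strand, and the Egln1 window is chr8:124949255-124949504 on the minus strand. In Pgk1 the 2 cores begin 150 and 131 bases before the start, in Bnip3 the CACGTG begins 108 bases before it, and in Egln1 the core begins 68 bases before it. Ldha has another promoter entry, at chr7:46846832-46847081 on the plus strand, which holds no core and is not shown. Of the 38 genes, 34 had a promoter entry and 21 had the core in at least 1 entry. Per entry, 51.1% of 47 held it, beside 16.6% of all 32851 promoters of the same length. Hk1, Gpi1, Pfkl, Pfkp, Pfkfb4, Tpi1, Gapdh, Eno1, Eno2, Ldhb, Pdk1, Adm and Higd1a held no ACGTG in these 250 bases. Other forms of the HIF site were not searched, and a match describes letters, not binding.

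The 4 libraries differed from each other in more than the members. The normalized tables held 3927 cells of XN4, 3905 of XN1, 3975 of KN1 and 3448 of CN4, with 19271688 to 41539513 reads per line. At an equal depth of 3200 reads per cell, the median cell of KN1 had reads of 764.5 genes, against 1651 in XN4, 1808 in XN1 and 1847 in CN4. Malat1, a nuclear RNA, had 32026 RPM (reads of a gene for every 1000000 reads of the line) in KN1 and 14187 in XN4, and 5297 in XN1 and 3280 in CN4. The markers of XN4 went against its neural label. The 10 neural progenitor markers, of which 6 were listed in XN4, summed to 1452 RPM there and to between 4582 and 10544 in the other lines, Sox2 was at 1.252 and Fabp7 was not listed. The 12 connective tissue markers summed to 9165 in XN4 and to between 22.9 and 227 in the others. The part of these differences in the results below was not tested. From 3.13% to 4.96% of the cells of a line carried a cell label that was also in a table of another line, and leaving those cells out is stated where it changed a count by more than 1.5 times.

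Summed over the 23 glycolysis genes, the level was 6033 RPM in XN1, 5726 in CN4, 3068 in XN4 and 2250 in KN1. The median over the 19 of them that passed the filter described next was 90.1 in XN1, 141 in CN4, 62.2 in XN4 and 46.7 in KN1. Summed over the 14 hypoxia genes listed, the level was 1490 in XN4, of which Adm alone gave 417, 1459 in XN1, 986 in CN4 and 333 in KN1. The median over the 13 that passed was 119 in XN1, 82.0 in CN4, 75.7 in XN4 and 28.6 in KN1. KN1 was lowest by each measure, whereas the highest line differed between sums and medians. All 38 genes were in the tables of all reads (XN4, XN1 and CN4), 37 were listed in at least 1 normalized table, and 32 had a read in at least 5% of cells thinned to 3200 reads in at least 1 line. Slc2a3, Pfkp, Pfkfb4, Slc16a3, Ankrd37 and Car9 did not pass that filter. Of the 32, the highest level was in XN1 for 17, in CN4 for 9, in XN4 for 5 and in KN1 for 1. The lowest level was in KN1 for 25 (P4ha2, not listed there, among them), in XN4 for 5 and in CN4 for 2. Over all 9538 genes that passed the same filter, the highest line was XN1 for 19.6%, CN4 for 25.2%, XN4 for 27.2% and KN1 for 28.1%, and the lowest was KN1 for 40.3%, XN1 for 24.3%, XN4 for 23.5% and CN4 for 11.9%. The members highest in CN4 were thus near the share of all genes. Some orders rest on near ties, such as XN1 before XN4 for Hif1a and before CN4 for Ldha and Aldoa. Because a gene enters through the line in which it is high, these counts describe the genes that passed only.

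**Figure D1:**
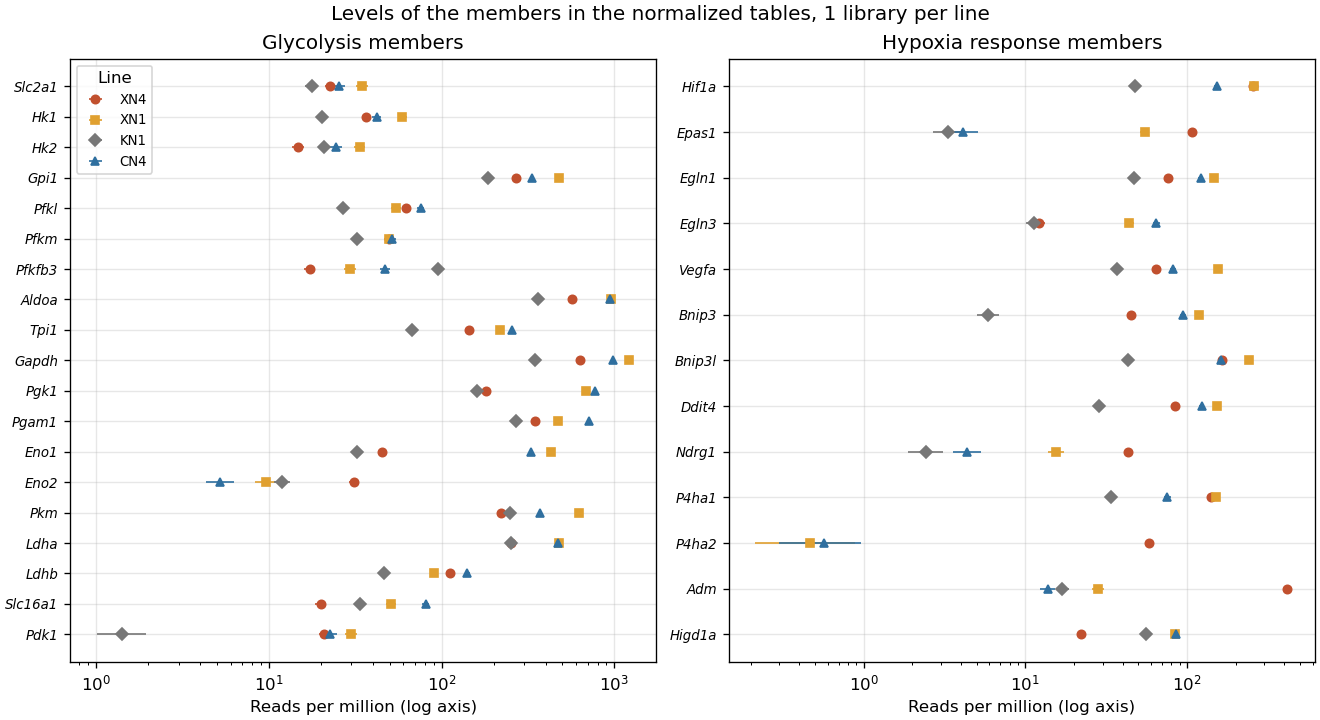
RPM (log axis) of the 32 genes that passed the filter, glycolysis on the left and hypoxia response on the right. Each symbol is 1 library (XN4 circles, XN1 squares, KN1 diamonds, CN4 triangles) with its exact Poisson 95% interval, and most KN1 diamonds lie at the left of their row.

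Among the early steps of glycolysis, the lines differed by less than 3-fold for Slc2a1, Hk1, Hk2, Gpi1, Pfkl and Pfkm. Slc2a1, the widespread glucose transporter, had 34.7 RPM in XN1, 25.4 in CN4, 22.7 in XN4 and 17.7 in KN1. Hk1, the hexokinase of most tissues, had 59.3, 42.0, 36.6 and 20.3 in the same order of lines. Hk2, the hexokinase that many growing cells add, had 33.6 in XN1, 24.6 in CN4, 20.9 in KN1 and 14.8 in XN4. Gpi1, the isomerase that follows them, had 478 in XN1, 334 in CN4, 268 in XN4 and 186 in KN1. In each of these genes XN1 was highest, by 1.37 to 1.43 times the next line. Pfkm, the muscle-type phosphofructokinase, differed least over the lines, with 32.5 in KN1 and between 49.3 and 51.8 in the others. Pfkl, the liver-type subunit, had 76.0 in CN4, 62.2 in XN4, 54.5 in XN1 and 26.8 in KN1. The neuronal glucose transporter gene Slc2a3, the platelet-type Pfkp and the regulator Pfkfb4 stayed low, at 4.57 to 13.4, 2.21 to 5.93 and 2.35 to 7.40 over the lines.

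Pfkfb3 was the only one of the 32 genes with its highest level in KN1, and Pfkfb4, which did not pass the filter, was also highest there. Pfkfb3 encodes the enzyme that makes fructose 2,6-bisphosphate, the strongest activator of phosphofructokinase. Its level was 95.7 RPM in KN1, 47.1 in CN4, 29.5 in XN1 and 17.2 in XN4, which made KN1 2.03 times the next line. These reads were in 9.31% of the thinned cells of KN1 and in 11.9% of those of CN4. In XN1 and XN4 the shares were 7.61% and 3.96%. Without dividing cells, the levels were 113 in KN1 and 64.1 in CN4, which is under 2-fold, and KN1 was still the highest line.

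The later steps separated XN1 and CN4 from XN4 and KN1. Pgk1, which makes the first ATP of the pathway, had 690 RPM in XN1 and 768 in CN4, against 181 in XN4 and 160 in KN1. Eno1, the enolase of most tissues, had 433 in XN1 and 329 in CN4, against 45.4 in XN4 and 32.2 in KN1. Both genes were several-fold higher in each of XN1 and CN4 than in either other line. Eno1 had a read in 68.9% of the thinned cells of XN1, 58.6% of CN4, 9.1% of XN4 and 4.7% of KN1. Eno1 has a near-identical copy, Eno1b, to which the counting may have given part of its reads. With both summed, the levels were 484 in XN1, 387 in CN4, 71.5 in KN1 and 64.8 in XN4, and XN4 and KN1 were again the lowest lines.

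The other late enzymes differed less. Aldoa, the main aldolase here, had 952 RPM in XN1 and 948 in CN4, whose intervals overlap, 572 in XN4 and 362 in KN1. Gapdh had 1212 in XN1, 984 in CN4, 634 in XN4 and 346 in KN1. Tpi1, which interconverts the triose phosphates, had 257 in CN4, 217 in XN1, 144 in XN4 and 67.2 in KN1. Pgam1 was highest in CN4 with 716, followed by 470 in XN1, 346 in XN4 and 270 in KN1. Pkm, the last enzyme of the pathway, was highest in XN1 with 624 and lay between 222 and 370 in the others. Ldha, which makes lactate, was nearly equal within 2 pairs of lines, with 478 in XN1 and 474 in CN4, and 253 in both XN4 and KN1. Ldhb had 141 in CN4, 112 in XN4, 90.1 in XN1 and 46.7 in KN1.

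Reads of the lactate transporter genes differed between lines. Slc16a1, the lactate transporter of most cells, had 80.7 RPM in CN4, 51.0 in XN1, 33.9 in KN1 and 19.9 in XN4. Slc16a3, the transporter of strongly glycolytic cells and a HIF target, had 20.0 in XN1, 7.84 in CN4 and 0.481 in XN4, and was not listed in KN1. Reads of Slc16a3 were in 6.7% of the XN1 cells of the table of all reads, 3.31% of the CN4 cells and 0.297% of the XN4 cells.

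Pdk1 and Bnip3 were nearly missing from KN1. Pdk1 had 1.41 RPM (1.01 to 1.93, exact Poisson 95% interval) in KN1, against 20.8 in XN4, 29.9 in XN1 and 22.7 in CN4. Bnip3 had 5.88 (5.01 to 6.86) in KN1, 45.3 in XN4, 119 in XN1 and 94.9 in CN4. In KN1 the 39 reads of Pdk1 lay in 0.277% of cells and the 162 of Bnip3 in 0.730%. These intervals take each read as a separate count and may be too narrow. KN1 lay 14.7-fold below the next line for Pdk1 and 7.70-fold below it for Bnip3. Its related gene Bnip3l had 42.9 in KN1, 162 in CN4, 164 in XN4 and 243 in XN1. Bnip3 lies at chr7:138890836-138909519 on the minus strand and overlaps Gm45507 and Gm18258 on the other strand.

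In all, KN1 lay at least 2-fold below the next line for 9 of the 32 genes (28.1%), beside 13.1% of the 9538 genes. These were Pfkl, Tpi1, Pdk1, Hif1a, Bnip3, Bnip3l, Ddit4, P4ha1 and P4ha2. P4ha2 was not listed in KN1 and passed the filter only through XN4. Since the genes listed in KN1 were in at least 7 cells, an unlisted gene may still have had reads, so its call is void. With only the 9160 genes listed in all 4 normalized tables, the count was 8 of 31, beside 12.4%, and all the others named here were still called. Under median-of-ratios scaling, which takes out a median shift of -0.13 (log2) of KN1, the count was 6 (P4ha2 included), without Pfkl, Tpi1 and P4ha1, beside 9.89% of all genes. It was the same 6 genes, beside 10.8%, with levels from the share of cells with a read, scaled by that of all genes. XN4 lay at least 2-fold below the next line for Higd1a, beside 8.05% of all genes. Without the KN1 library, which changes which line is next, the count was 6 (Pgk1, Eno1, Slc16a1, Egln3, Bnip3 and Higd1a), beside 10.9%. No member was so low in XN1, beside 1.68%, or in CN4, beside 1.07%. The median log2 ratio of XN1 over KN1 was 1.02 over 19 glycolysis genes and 2.29 over the 12 hypoxia genes listed in both, with 0.14 over all genes tested. That of XN4 over KN1 was 0.53 and 1.99, with 0.15 over all genes, and that of KN1 over CN4 was -1.25 and -1.26, with -0.23. The hypoxia genes thus had the larger median with XN1 and XN4, and about the same median as the glycolysis genes with CN4. Some genes of both lists, such as Ndrg1 and Eno2, had passed the filter only through XN4. The difference between the lists was not tested.

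The sensors and factors of the oxygen response also differed. Hif1a mRNA was at 255 RPM in XN4 and 259 in XN1, whose intervals overlap, 152 in CN4 and 47.8 in KN1. Epas1, which encodes HIF-2α, was at 107 in XN4, 54.7 in XN1, 4.14 in CN4 and 3.34 in KN1. The level of Epas1 was therefore high in both lines made with XAV, and the intervals of CN4 and KN1 overlap. Egln1 was at 146 in XN1, 122 in CN4, 75.7 in XN4 and 47.1 in KN1. Egln3, a sensor that is itself a HIF target, was at 64.7 in CN4, 44.1 in XN1, 12.1 in XN4 and 11.4 in KN1.

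Among the targets, Vegfa was at 156 RPM in XN1, 82.0 in CN4, 64.3 in XN4 and 37.0 in KN1. Ddit4, an inhibitor of mTORC1, was at 152 in XN1, 123.3 in CN4, 84.5 in XN4 and 28.6 in KN1. Higd1a, a small mitochondrial protein, was at 85.0 in CN4, 84.5 in XN1, 56.0 in KN1 and 22.1 in XN4. All 3 targets were high in XN1. Ankrd37 had at most 4.05 RPM in a line and was not listed in KN1. Car9, a carbonic anhydrase often used to mark hypoxia, was in no normalized table. In the tables of all reads it had 27 reads in XN4, 2 in XN1 and 34 in CN4, in at most 0.149% of the cells of a line.

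XN4 was highest for another set of targets. Adm, the vasodilator peptide adrenomedullin, had 417 RPM in XN4, with 28.2 in XN1, 16.9 in KN1 and 13.7 in CN4. P4ha2, a catalytic subunit of collagen prolyl hydroxylase, had 57.9 in XN4, 0.467 in XN1 and 0.567 in CN4, and was not listed in KN1. Ndrg1, a stress-responsive gene, had 43.0 in XN4, 15.4 in XN1, 4.36 in CN4 and 2.43 in KN1. Eno2, the enolase named for neurons, had 30.9 in XN4, 11.9 in KN1, 9.65 in XN1 and 5.23 in CN4. These 4 of 32 genes (12.5%) were at least 2-fold above the next line in XN4, beside 7.65% of all genes tested. Of them, Eno2, Ndrg1 and P4ha2 passed the filter only through XN4, where 8.36%, 9.37% and 11.7% of thinned cells had a read, so that these calls describe how they entered and the count supports nothing further. The count was 1 in KN1 (Pfkfb3, beside 8.66%), 0 in XN1 (beside 2.63%) and 0 in CN4 (beside 1.61%). P4ha1, the other of these catalytic subunits described here, was at 140 in XN4, 151 in XN1, 75.5 in CN4 and 33.8 in KN1. In XN4 the connective tissue markers given above were high as well, and collagen prolyl hydroxylase serves collagen synthesis, but their part in these levels was not tested.

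The lines also differed in which gene of a pair gave the reads. Shares of reads depend on how well each transcript is caught, so they are compared only between lines. Eno2 gave 40.5% of the reads of Eno1 and Eno2 in XN4 and 27.0% in KN1, but 2.18% in XN1 and 1.57% in CN4. With the reads of the copy Eno1b counted with those of Eno1, Eno2 gave 32.3% in XN4, 14.3% in KN1, 1.95% in XN1 and 1.33% in CN4. Counting each cell the same, without the copy, it gave 55.0% in XN4 and 27.4% in KN1. Epas1 gave 29.6% of the reads of Hif1a and Epas1 in XN4 and 17.5% in XN1, but 6.52% in KN1 and 2.64% in CN4. P4ha2 gave 29.3% of the reads of P4ha1 and P4ha2 in XN4 and 0.308% to 0.745% in XN1 and CN4. No share is given for KN1, where P4ha2 was not listed.

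**Figure D2:**
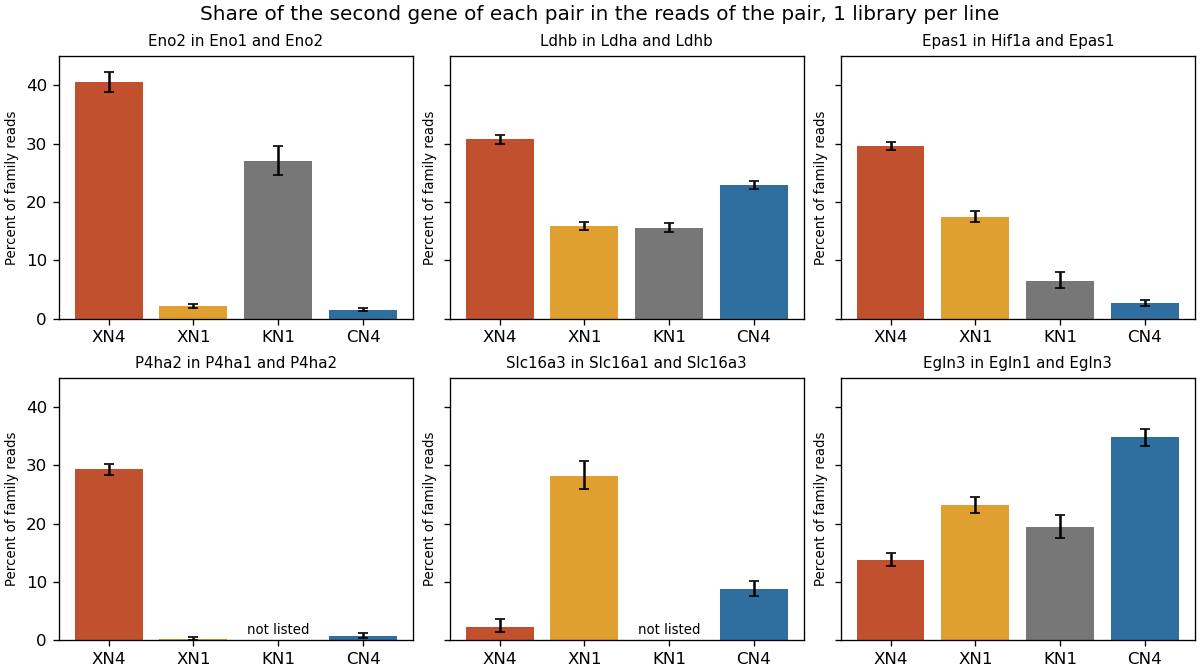
Percent of the reads of a gene pair that fell on its second gene, for 6 pairs and 4 lines, with exact binomial 95% intervals. P4ha2 and Slc16a3 were not listed in KN1, and Eno1b is left out. Eno2, Epas1 and P4ha2 take their largest share in XN4, Slc16a3 in XN1 and Egln3 in CN4.

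Ldhb, the lactate dehydrogenase of oxidative tissues, gave 30.7% of the reads of Ldha and Ldhb in XN4, 22.9% in CN4, 15.9% in XN1 and 15.6% in KN1, where the intervals of the last pair overlap. Slc16a3 gave 28.2% of the reads of the 2 lactate transporters in XN1, 8.85% in CN4 and 2.36% in XN4. Egln3 gave 34.7% of the reads of Egln1 and Egln3 in CN4, 23.1% in XN1, 19.4% in KN1 and 13.8% in XN4. Hk2 gave 50.8% of hexokinase reads in KN1, and 28.8% in XN4, 36.1% in XN1 and 36.9% in CN4.

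Other genes of metabolism and of the oxygen response, from lists written for these cells, were counted in the same way. Of 8 further glycolysis genes that passed the filter, Tigar and Gpd2 were at least 2-fold below the next line in XN4, beside 8.05% of all genes, 1 in XN1 (Pygb), beside 1.68%, and 1 in KN1 (Pgm2), beside 13.1%. None was 2-fold above it in any line. Aldoc, the aldolase of brain, had 270 RPM in CN4, 169 in KN1 and 127 in XN1 and was not listed in XN4, where listed genes were in at least 5 cells, so it was left out of that count. Gpd2 of the glycerol phosphate shuttle had 99.6 in CN4, 75.8 in XN1, 30.04 in KN1 and 5.83 in XN4. Of 17 genes of pyruvate entry and the TCA cycle, none was 2-fold above the next line in any line, 3 were 2-fold below it in KN1, beside 13.1% of all genes, and none was in the others. Among these Pdha1 had 56.0 in KN1 and 157 to 314 in the others. Of 7 pentose phosphate genes, Pgd was 2-fold above in XN4, beside 7.65% of all genes, with 189 there and 42.7 in KN1. G6pdx and Pgd were 2-fold below in KN1, beside 13.1%, and Rpia was in XN1, beside 1.68%.

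Of 29 further hypoxia targets that passed, 5 were at least 2-fold above the next line in XN4, 3 were in XN1, 1 was in KN1 and none in CN4, where the shares of all genes were 7.65%, 2.63%, 8.66% and 1.61% in the same order. Of these, Zfp395, Lox, Loxl2 and Selenbp1 in XN4 and Car12 in XN1 had passed the filter only through the line where they were high and so had to differ, and nothing is read from these counts. In KN1, 9 were 2-fold below the next line, beside 13.1% of all genes, of which Loxl2 had passed only through XN4. In XN4, Bhlhe40, Ak4 and Apln were 2-fold below it, beside 8.05%, and Apln, a vascular peptide, had 1.16 RPM there and 62.5 to 173 in the others. Loxl2, a collagen crosslinking enzyme, had 778 RPM in XN4 and 5.04 to 23.2 in the others, and Lox had 68.4 in XN4, 1.35 in CN4 and was not listed elsewhere. Ero1l, Plod1 and Car12 were the 3 in XN1, where Car12 had 45.8 RPM, with 1.76 to 3.95 in the others. Among 13 oxygen sensing genes, Arnt, Hif3a and Cited2 were 2-fold above in XN4, beside 7.65% of all genes, and Cul2 in KN1, beside 8.66%. Hif3a had passed the filter only through XN4. Eloc, Elob and Cited2 were 2-fold below in KN1, beside 13.1%, and Hif3a in XN1, beside 1.68%. Cited2, which competes with HIFs for their coactivators, had 148 RPM in XN4 and 55.3 in XN1, 32.2 in CN4 and 6.64 in KN1. ATF4, the factor of the integrated stress response, also acts on Ddit4. The 12 other ATF4 stress genes listed were all highest in XN1, as were 19.6% of all genes. Among them, Trib3, Chac1 and Slc7a11 had passed the filter only through XN1. Their place there describes how they entered, and nothing is read from the count. Of the 12, 4 were at least 2-fold above the next line, beside 2.63% of all genes. Nupr1, for example, had 104 in XN1 and 4.93 to 29.2 in the others. Trib3, another of the 4, had passed the filter only through XN1. Below the next line by 2-fold were 2 in XN4, beside 8.05%, 1 in KN1, beside 13.1%, and 3 in CN4, beside 1.07%, of which Chac1 in XN4 and Trib3 and Slc7a11 in CN4 had passed only through XN1.

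To see whether the genes vary together from cell to cell within a line, cells with reads of at least 2 of the targets Bnip3, Pdk1, Egln3, Vegfa, Ankrd37 and P4ha1 were set against cells with none, at 3200 reads per cell. These 6 genes chose the cells and are left out of the comparison. In XN1, 973 of 3129 thinned cells (31.1%) had reads of at least 2 of them, as did 558 of 3158 cells (17.7%) in CN4, 323 of 3384 (9.54%) in XN4 and 4 of 3396 (0.118%) in KN1. With 4 cells, KN1 was not compared.

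**Figure D3:**
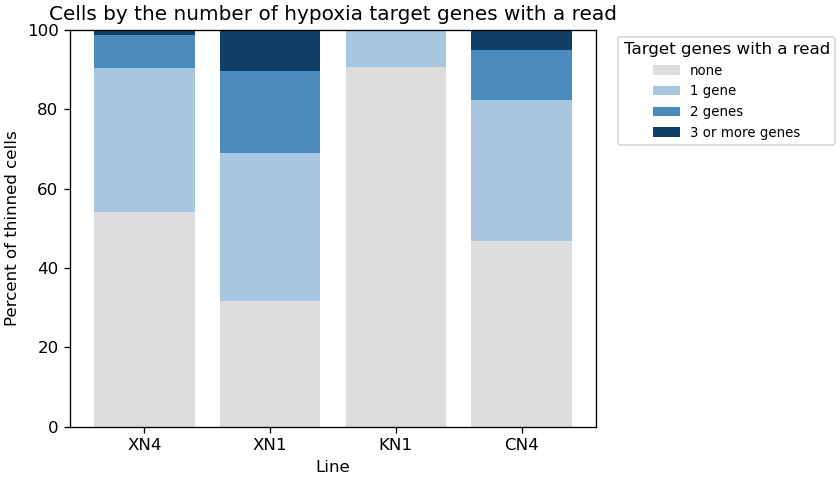
Percent of thinned cells (3200 reads each) by the number of the 6 hypoxia target genes with a read, for 4 lines of 1 library each. Cells without any are 90.8% in KN1, 54.1% in XN4, 46.7% in CN4 and 31.7% in XN1.

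In XN1 and CN4, some of the members had more reads in the cells with target reads. Others did not pass 1.5-fold in either line, such as Gapdh, Pkm, Ldhb, Pfkm, Eno1, Slc16a1, Pfkfb3, Hif1a and Ddit4. In XN1, 11 of 24 genes (45.8%) had at least 1.5 times the mean reads, beside 2.26% of 8002 genes tested in this contrast. In CN4, 11 of 22 (50.0%) did, beside 2.1% of 8134 genes. The median ratio over the members was 1.48 in XN1 and 1.52 in CN4, with 0.98 over all genes tested in each. In XN4, 2 of 24 genes did, beside 3.08% of 7818 genes, and the median ratio was 1.13 with 1.00 over all genes.

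Gpi1, Pfkl, Aldoa, Tpi1, Pgk1, Pgam1, Egln1 and Higd1a passed 1.5-fold in both XN1 and CN4. For Tpi1 the mean was 1.007 reads per cell against 0.525 in XN1, a ratio of 1.92 (1.72 to 2.14), and 1.24 against 0.662 in CN4, a ratio of 1.87 (1.69 to 2.06). Reads of Tpi1 were in 54.1% and 37.5% of the cells in XN1 and in 62.7% and 42.2% in CN4. Pgk1 had a ratio of 1.91 in XN1 and 1.60 in CN4, Gpi1 of 1.88 and 1.68, and Higd1a of 1.84 and 1.99. Gapdh, whose step lies between those of Tpi1 and Pgk1, did not pass, with 1.37 in XN1 and 1.47 in CN4.

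Some members passed in a single line. Hk2 had a ratio of 2.21 (1.64 to 3.001) in XN1 and 0.98 (0.67 to 1.40) in CN4. Hk1 had 1.255 in XN1 and 1.69 in CN4. Slc2a1 and Epas1 passed in XN1, with 1.66 and 1.63, and Ldha and Bnip3l in CN4, with 1.57 and 1.67. In XN4, Eno1 had a ratio of 1.70 (1.22 to 2.32) and Ddit4 of 1.57 (1.247 to 1.96), while Pfkl had 0.865 and Tpi1 1.118. Whether the ratios differ between lines was not tested. Of the 19 members compared in all 3 lines, 17 were above 1 in each, where 44.5% of all genes tested were above 1 in XN1, 45.2% in CN4 and 49.6% in XN4. The others were Pfkl and Pfkm, both below 1 in XN4.

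**Figure D4:**
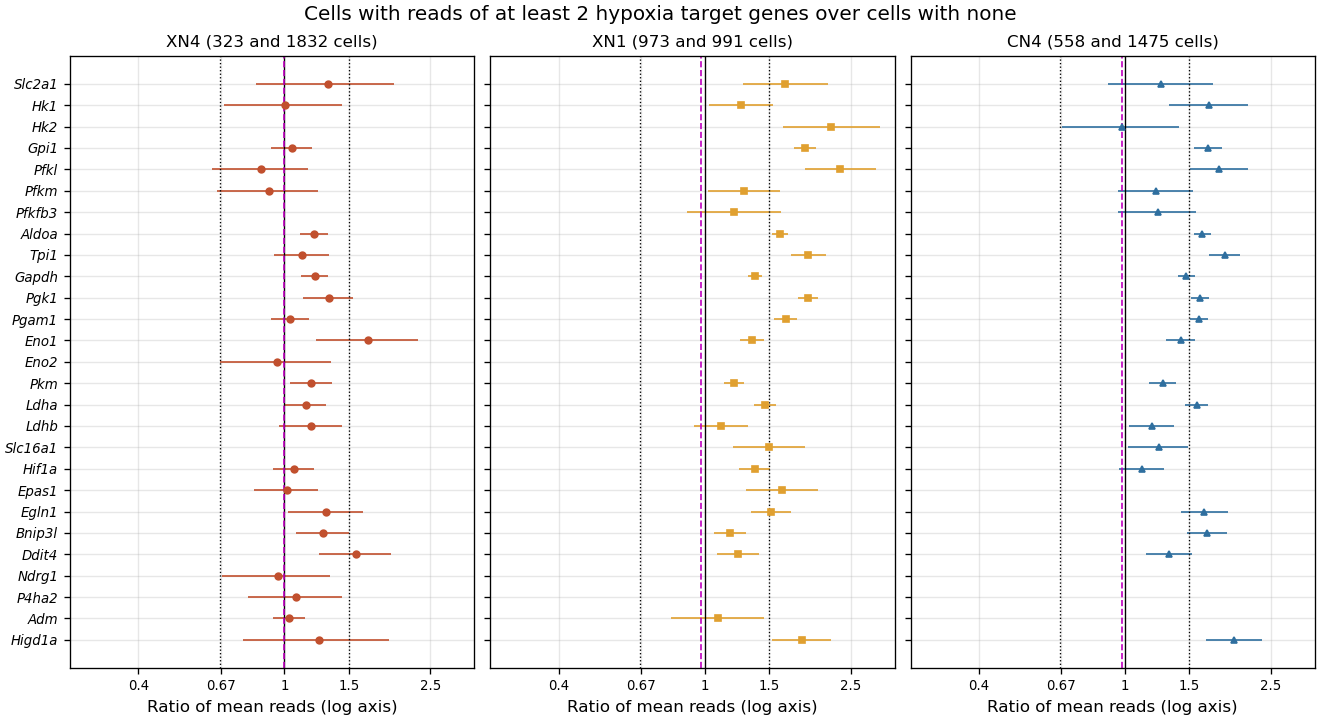
Ratio of mean reads (log axis) in cells with reads of at least 2 of the 6 target genes over cells with none, with exact 95% counting intervals, for XN4, XN1 and CN4. Dotted lines are 1.5-fold either way and the dashed line is the median of all genes tested. Most XN1 and CN4 members lie to the right of it, and XN4 members lie near it.

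Targets outside the 6 were compared in the same cells. Of the further hypoxia targets tested, 6 of 25 passed 1.5-fold in XN1, 4 of 23 in CN4 and 2 of 23 in XN4. Ero1l, an oxidase of the endoplasmic reticulum, had a ratio of 3.37 in XN1 and 1.37 in CN4. Fam162a had 1.70 and 2.51, and the glycogen enzymes Pgm2 and Gbe1 had 2.16 and 2.13 in XN1 and 2.27 and 2.11 in CN4. None of 17 genes of pyruvate entry and the TCA cycle passed in any of the 3 lines, where 2.26% (XN1), 2.1% (CN4) and 3.08% (XN4) of all genes did, so that a count of 0 is near the background. Their median ratios were 0.96 in XN1, 1.00 in CN4 and 1.14 in XN4. Of the ATF4 stress genes, 4 of 12 passed in XN1, led by the cystine transporter Slc7a11 with 3.27, 2 of 8 in XN4 and 0 of 7 in CN4.

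Other properties of the cells differed in this contrast, and their part in it was not tested beyond the counts given here. Dividing cells, with reads of at least 2 of Mki67, Top2a, Ccnb1, Cdk1, Cenpf and Ube2c, made up 18.3% of the cells with target reads and 35.2% of those without in XN1, 46.4% and 59.2% in CN4, and 18.9% and 21.2% in XN4. With cells free of those 6 genes alone, the count was 11 in XN1, beside 3.19% of all genes, 11 in CN4, beside 6.82%, and 0 in XN4, beside 5.31%. In XN1, Ldha was then past the fold in place of Epas1. In CN4, Pfkm and Eno1 were past the fold in place of Hk1 and Egln1, and Hk2 was past it in the lower direction. Reads of Fos were in 22.4% and 12.8% of the cells in XN1 and in 41.8% and 27.3% in CN4. Without the cells with Fos reads, the count was 11 in XN1, beside 2.20% of all genes, and 6 in CN4, beside 2.23%. In XN1, Slc16a1 was then past the fold in place of Egln1. In CN4, Gpi1, Aldoa, Tpi1, Pgk1, Ldha and Higd1a were left. In XN4, cells with target reads had a median of 14578 reads before thinning and 17.6% mitochondrial reads, against 7860.5 and 26.5%, while in XN1 the medians were 5227 and 5051 reads. Reads of Lcn2, Cxcl1, Ccl2 or Serpina3n were in 36.7% and 21.5% of the cells in XN1, 4.12% and 1.15% in CN4 and 57.0% and 46.2% in XN4. Without such cells the count was 11 in XN1, beside 2.20% of all genes, 11 in CN4, beside 2.10%, and 1 in XN4, beside 6.57%. Here too Slc16a1 took the place of Egln1 in XN1. Without the cells that shared a label with another line, the count in XN4 was 1, beside 3.15% of all genes.

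Over single cells, Pearson correlations of ln(1 + reads) are given as a description. In XN1, the 105 pairs of the 15 members with a read in at least 30% of cells had a median of 0.079, with 0.000 over all gene pairs at that capture. In CN4, 66 pairs of 12 members had a median of 0.104 with 0.000, and in XN4, 36 pairs of 9 members had 0.026 with 0.004. The highest pair in each of these lines was Aldoa with Gapdh, at 0.310 in XN1, 0.273 in CN4 and 0.144 in XN4. All points share a library and depth, and in sparse counts such values are bounded by the few reads per cell. KN1 had 1 pair.

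Dividing cells were compared with cells without any of the 6 dividing genes in each line. In XN1, 8 of 29 members (27.6%) were at least 1.5-fold lower in 857 dividing cells than in 1698 others, beside 8.71% of 8001 genes. They were Aldoa, Pdk1, Epas1, Egln3, Vegfa, Bnip3, Ddit4 and Adm. None was 1.5-fold higher, beside 10.6%. Bnip3 had a ratio of 0.51 (0.43 to 0.59), with reads in 17.2% of dividing and 28.4% of other cells. Vegfa had 0.59 and Ddit4 0.55, and the median over members was 0.77, with 1.00 over all genes.

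In CN4, Pfkfb3, Pdk1 and Ddit4 were at least 1.5-fold lower in 1759 dividing cells than in 806 others, with ratios of 0.64, 0.62 and 0.63. They were 3 of 27 members (11.1%), beside 5.48% of 8133 genes, and none was higher, beside 7.91%. In XN4, 5 of 28 (17.9%) were lower, beside 11.6% of 7816 genes, namely Eno2 with 0.40, Ndrg1 with 0.41, Epas1 with 0.48, Pdk1 with 0.58 and Hk1 with 0.63. There Eno1, Higd1a and Pgam1 (3 of 28, beside 9.95%) were higher, with ratios of 1.66, 1.64 and 1.52. Only Higd1a of them was past the fold with no thinning, beside 8.48% of all genes. Pgam1 was not past it without cells with shared labels. In KN1, none of the 11 members tested was past the fold in either direction, beside 8.59% of 4775 genes higher and 4.54% lower.

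**Figure D5:**
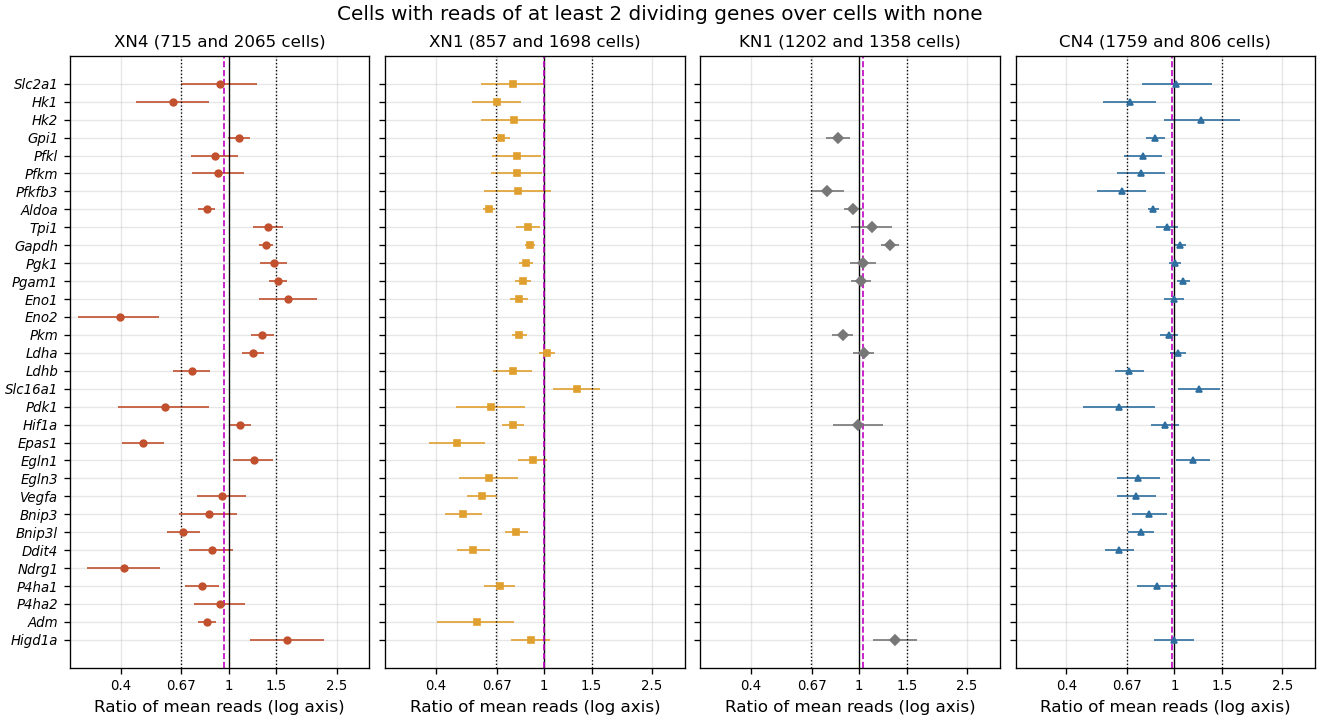
Ratio of mean reads (log axis) in dividing cells over cells without reads of the 6 dividing genes, with exact 95% counting intervals, in 4 lines. Dotted lines are 1.5-fold either way and the dashed line is the median of all genes tested. XN1 members lie mostly left of 1 and XN4 members on both sides.

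Pdk1 was below the fold in XN4, XN1 and CN4, and Hk1 was close to it in each, with 0.63, 0.67 and 0.68. When dividing cells needed reads of at least 3 dividing genes, Pdk1 was not past the fold in XN1, while Hk1 and Gpi1 were. Of the 10 members tested in all 4 lines, Ldha alone was above 1 in each, between 1.02 and 1.23, and Aldoa alone was below 1 in each. Per line, from 44.8% to 55.7% of all genes tested were above 1. The share of all genes on the same side in every line was not counted, so nothing is read from Ldha or Aldoa here. Slc16a1 was above 1 in both XN1 and CN4, with 1.32 and 1.23. In XN4, dividing cells had a median of 12634 reads before thinning, against 8284 in the others, in KN1 8179 against 5591.5, in CN4 7324 against 6326.5 and in XN1 5689 against 4930.5. The part of that difference in depth was not tested.

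Finally, the members were compared between the fifth of cells with the fewest reads and the fifth with the most, in the tables of all reads. In XN4, 24 of 32 members differed at least 1.5-fold between these groups, beside 53.5% of all genes, and the median ratio was 0.48, with 0.71 over all genes. Eno1 had 10.8 RPM in the fifth with the fewest reads and 55.0 in the fifth with the most, whereas Eno2 had 28.0 and 14.6. Mitochondrial genes took 40.7% of the reads in the fifth with the fewest reads of XN4 and 14.5% in the other. RPM here counts mitochondrial reads in the total, so a larger mitochondrial share by itself lowers the level of every other gene. Its part in the ratios of XN4 was not tested. In XN1, 1 of 30 members was past 1.5-fold, beside 8.57%, and in CN4 2 of 29, beside 13.4%. Members past the fold were 24 of 32 in XN4 against 1 or 2 in the other lines with this table. The share of all genes past it was also largest in XN4, at 53.5% against 8.57% in XN1 and 13.4% in CN4. The difference between lines was thus not particular to the members.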

How the data were processed

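Each of the 4 NSC lines was measured as 1 BD Rhapsody WTA library. The tables of all reads (XN4, XN1, CN4) hold counts of reads, not molecular identifiers, which the authors deposited after the BD pipeline 1.12.1 with GRCm38, GENCODE M19 and intronic reads. The normalized tables (4 lines) hold values the authors deposited as the natural log of 1 plus reads per 10000 of a cell (Seurat 4.3.0), ribosomal protein and mitochondrial genes left out. These were turned back into reads, of which 100% were whole within 0.01. Levels are pooled RPM (19271688 to 41539513 reads per line) with exact Poisson intervals; shares have Clopper-Pearson intervals, all at 95%. Reads are amplified copies, so intervals cover the counting of reads only and may be narrower than the error over molecules or cells. A level under 3 reads, or of a gene not listed in a line, counted as 3 reads in folds. Contrasts within lines used cells thinned to 3200 reads, leaving out 290 to 776 shallower cells per line, and genes with reads in at least 5% of them. Doublets were not called. Positions are from GENCODE on GRCm38. The computations used Python 3.11.15, numpy 2.4.6, pandas 2.3.3 and scipy 1.17.1 and were tested on simulated data. Named genes are all 38 members and up to 4 genes per further list with the largest ratio of highest to lowest line. Fos, Ero1l, Plod1, Pgm2, Gbe1, Fam162a and the genes named as past a fold were chosen after their values were seen. The members and lists were chosen with earlier results of these data known.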

Additional observations from a re-analysis of the deposited data

Results flagged for a closer look

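In dividing cells of XN4, Eno1, Higd1a and Pgam1 had 1.66, 1.64 and 1.52 times the reads of other cells. They were 3 of 28 members, beside 9.95% of all genes, which is near the background. Their ratios in XN1 were 0.81, 0.89 and 0.84, below 1 but not past the 1.5-fold used. In XN4, only Higd1a of the 3 was past that fold with no thinning, and Pgam1 was not past it without cells with shared labels. With 1 library per line, the difference between lines was not tested.

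In the tables of all reads, Car9 had 27 reads in 13 of 8741 cells of XN4 and 34 reads in 18 of 18157 cells of CN4. No normalized table lists it. Those tables hold fewer cells, and their listed genes were in at least 5 cells of XN4 and 3 of CN4. Being unlisted is thus not a count of 0, and Car9 may have had reads there. In XN1, Car9 had 2 reads in the table of all reads.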

How the results depend on the processing

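Of 143 alternative counts, 104 stayed within 1.5 times the reported count. These include counts of 0 that stayed at 0, such as members 2-fold below the next line in XN1, which tell little about stability. No paired analysis was possible because each line is 1 library.

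Members at least 2-fold above the next line in XN1 (reported 0, beside 2.63% of all genes) were 1 with detection in place of reads (2.62%). The count was also 1 with median-of-ratios scaling (2.84%) and in the tables of all reads (4.02%). It was 2 at a fold of 1.5 (5.20%) and 3 without the XN4 library (5.83%). In KN1 (reported 1, beside 8.66%) it was 0 without dividing cells (8.94%). In CN4 (reported 0, beside 1.61%) it was 2 at a fold of 1.5 (4.62%). Members 2-fold below in XN4 (reported 1) were 8 in the tables of all reads (11.8% of all genes), 3 at a fold of 1.5 (10.9%) and 6 without the KN1 library (10.9%), against 8.05% as reported. In KN1 (reported 9) they were 17 at a fold of 1.5 (22.2%) and 17 without the XN4 library (18.8%), against 13.1%. In CN4 (reported 0) they were 4 in the tables of all reads (4.24%), 1 at a fold of 1.5 (2.51%) and 3 without the KN1 library (4.31%), against 1.07%. Leaving out a line, or using tables that hold 3 lines, changes which line is next.

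In what follows, shares in brackets are of all genes. Members higher in dividing cells of XN4 (reported 3) were 1 of 28 with no thinning (8.48%). At the lower fold tried, 7 were higher (19.9%) and 8 lower (26.4%, reported 5). In XN1 (reported 0 higher, 8 lower), 1 of 29 was higher (21.9%) and 18 lower (21.5%) at the lower fold. With the filter at 1% of cells, 1 of 35 was higher (13.1%) and 12 lower (12.4%). In KN1 (reported 0 both ways), 1 of 11 was lower with at least 3 dividing genes (7.64%). At the lower fold, 2 were higher (21.5%) and 1 lower (15.4%). With the 1% filter, 2 of 28 were higher (14.3%) and 1 lower (9.13%). In CN4 (reported 0 higher, 3 lower), 5 of 27 were lower with at least 3 dividing genes (7.48%). At the lower fold, 1 was higher (16.3%) and 10 lower (18.3%). With the 1% filter, 1 of 33 was higher (9.10%) and 5 lower (10.3%).

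Members higher in cells with target reads in XN4 (reported 2 of 24) were 0 with no thinning (0.806% of all genes). They were 0 in cells without dividing genes (5.31%), 6 at the lower fold (14.6%) and 3 of 28 at 1% (6.37%). The count was 1 without cells with reads of Lcn2, Cxcl1, Ccl2 or Serpina3n (6.57%) and 1 without cells with shared labels (3.15%). In XN1 (reported 11 of 24, beside 2.26%), 18 were higher at the lower fold (9.11%). In CN4 (reported 11 of 22, beside 2.10%), 17 of 28 were at 1% (5.73%) and 6 without cells with reads of Fos (2.23%). Except where the fold, the filter or the lines themselves changed, the cause was not tested. The alternatives that leave out a line, genes not listed in every line, shared labels, Fos or the Lcn2 group, or that count Eno1b with Eno1, were chosen after seeing the data. Of the 3 lines with tables of all reads, XN4 had the most members that differed between shallow and deep cells. It also had the largest share of all genes that did, at 53.5% against 8.57% in XN1 and 13.4% in CN4. KN1 was not compared in that way.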
